A study of Mus musculus with 5 samples.

Results

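The genes described here are 36 mouse genes that fold secretory proteins in the endoplasmic reticulum (ER), move them into it, remove them when they misfold, or carry the unfolded protein response. The rule for the set names the genes and uses no measured value, and every probe set that the array annotation assigned to 1 of them alone was taken. The set is 36 of 18193 genes named on the array. It holds 83 probe sets for 35 of the genes. The remaining gene, Sec61g, had only a probe set shared with other genes and was not measured. By role there were 16 chaperones and folding enzymes, 7 genes of translocation, 6 of ER-associated degradation and 7 stress regulators and targets.

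RNA was measured on an Affymetrix mouse expression array in epithelial cells sorted from the trachea of C57BL/6 mice, with no genotype or treatment named. Basal cells (2 arrays) were TROP-2+ ITGA6+ cells of the surface epithelium, which had been freed with dispase, from the lower part of the trachea. Duct cells (3 arrays) were TROP-2+ cells sorted, without ITGA6, from the upper part of the trachea once pronase had taken off the surface epithelium. Mice of both sexes were 8 to 12 weeks old, and each array came from a separate pool of 10 to 15 mice. The cell type cannot be told apart from the enzyme, the tracheal section or the sort gate, since all of them differ between the groups. In such bulk samples, fewer cells of a type and less RNA per cell cannot be told apart either.

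Proteins that enter the secretory pathway are threaded through the Sec61 channel into the ER, where chaperones of the Hsp70 and Hsp90 families, lectin chaperones and disulphide isomerases fold them. Proteins that fail are pulled back to the cytosol and degraded. When unfolded protein builds up, the sensors IRE1, PERK and ATF6 come free of the chaperone BiP. IRE1 makes active XBP1 by splicing its mRNA, ATF6 is cut to a transcription factor, and PERK slows translation while favouring that of ATF4. XBP1 and ATF6 raise chaperone and degradation genes, whereas ATF4 raises amino acid supply genes and, with CHOP, stress genes. ATF4 is also raised by other kinases that sense amino acid shortage and other stresses. Tracheal gland ducts carry the secretions of serous and mucous cells, cell types known for a large ER. Activation of these factors by splicing, cleavage or translation is not read by an array of total mRNA.

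With 27 Bacillus control probe sets as a measure of background, 62.5% to 74.6% of probe sets were brighter than the brightest of them on the same array, and the median intensity was lowest on duct replicate 1, at 92.3 against 147 to 153 on the others. All 6 basal cell markers were above the controls on all arrays of both groups. They summed to 45518 to 47876 in basal and 72064 to 82131 in duct. The keratins Krt5, Krt14, Krt15 and Krt17 were higher on every duct array, Krt14 at a mean of 1430.0 in basal and 19816 in duct. Trp63 and Ngfr were lower on every duct array, with Ngfr at 1791 and 1820.0 in basal and 406, 754 and 466 in duct. All 4 club cell markers measured were also above the controls on all arrays. Their sums were 80466 to 123574 in basal, more than those of the basal markers, and 72390.5 to 88514 in duct. Of 6 ciliated cell markers, 5 were above the controls on all arrays of each group. The 6 summed to 1253 to 3163 in basal and 923 to 1525 in duct. The duct arrays also carried squamous markers, with all 7 measured above the controls and a summed intensity of 78562 to 101813 against 8682 to 10678 in basal. Thyroid markers, which no label names, summed to 9210.2 to 21101 on the duct arrays and 236 to 245 on the basal arrays. Of these, 4 of 5 were above the controls on all duct arrays and 0 on all basal arrays. The duct sum is mostly Tg, at 8779, 16062 and 20119. Slc5a5, Pax8 and Dio1 were dimmer but higher on every duct array, and Tshr overlapped. Markers of serous gland cells (4 of 6 above the controls on all arrays of each group) summed to 45841 to 58269 in basal and 51437 to 74977 in duct, with Dcpp1 not above the controls on any array. That sum is mostly Bpifa1, at a mean of 42067 in basal and 41799 in duct. Dmbt1 was higher on every duct array, at 69.1 and 595 in basal and 6873, 2424 and 4198 in duct. Ltf only just separated, at 3404 and 10406 in basal and 16758, 10412 and 20565 in duct. Pigr and Lpo overlapped, with Pigr at 845 and 4613 in basal and 3724, 1412 and 1682 in duct. Mucous markers (4 of 6 in each group) summed to 2841 to 7595 in basal and 3541 to 4966 in duct. Plasma cell markers (3 of 6 in each group) summed to 470.1 to 542 in basal and 204 to 771 in duct, and Jchain was not above the controls on any array. The part of these other cell types in the results was not tested.

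A fold change here is the difference of duct from basal in log2(intensity + 16), a scale that shrinks the changes of dim genes, and is positive where duct was higher. Of the 36 genes, 35 passed the filter on dim probe sets. No gene of the 35 passed the test (limma, Benjamini-Hochberg adjustment over 12536 genes, threshold 0.05), while 0.973% of all genes tested did. At an unadjusted p under 0.05, 6 were higher and 2 lower in duct, against a background of 7.91% and 10.6% of genes. With an intensity trend and robust fit, limma called 4 of them, all higher in duct: Hspa5, Trib3, Chac1 and Asns. That fit called 4.51% of all genes higher and 3.01% lower. The smallest adjusted p was 0.0727, for Asns. The statements that follow are therefore about measured values and their spread.

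The values leaned toward the duct arrays. Fold changes were positive for 27 of 35 genes and negative for 8, with a median of 0.17, beside -0.12 over all genes tested, 41.6% of which were positive. Small values turned with the scaling: Pdia3, Calr, Dnajb11 and Sec61a1 were below 0 after quantile normalization, and Dnajc3, Sec61b, Ssr1 and Ssr4 were above 0 with each array centred on its median. On 15 genes (42.9%) every duct array lay above both basal arrays, and on 4 (11.4%) every duct array lay below them. The same held for 16.5% and 22.6% of all genes tested. The 15 include Trib3 and Chac1, which passed the intensity filter only through the duct arrays, where they are high, and without them the count was 13 of 33. The lead over all genes depended on the scaling. With each array centred on its median both medians shifted, to 0.38 for the set and 0.08 for all genes. After quantile normalization they were closer, at 0.13 and -0.05, with 23 positive and 12 negative in the set. By role the median was 0.27 for chaperones and folding enzymes, 0.05 for translocation, -0.04 for degradation (0.16 with centring) and 0.68 for stress regulators and targets. Deviations from each gene's mean over the 5 arrays had medians of -0.13 on both basal arrays and of 0.21, 0.15 and 0.05 on duct replicates 1, 2 and 3. Duct replicate 1 was the highest duct array for 18 of the 35 genes and duct replicate 3 for 5, and duct replicate 3 was the lowest for 17. Duct replicate 1 is the array with the lowest median intensity, and the part of that in these values was not tested.

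**Figure D1:**
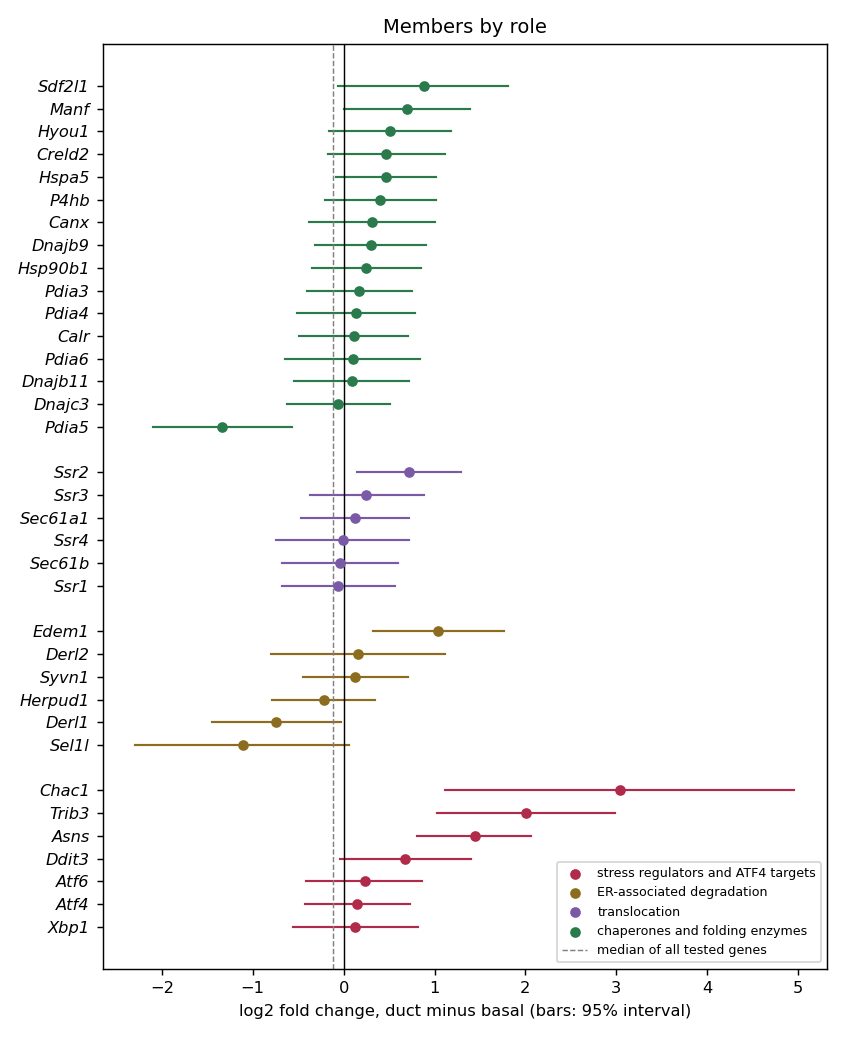
Log2 fold change of each of the 35 measured genes (points) with its 95% interval from the limma fit, not adjusted for multiple testing (bars), grouped by role. The dashed line marks the median of all tested genes, -0.12. The values run from -1.34 for Pdia5 to 3.04 for Chac1, and the 4 stress genes at the top of their group are those of CHOP and 3 ATF4 targets.

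The widest differences were among the ATF4 targets. The genes Asns, Chac1, Trib3 and Ddit3 were each higher on all 3 duct arrays than on both basal arrays, with a median fold change of 1.72, while the transcription factors Atf4, Atf6 and Xbp1 had overlapping arrays and fold changes of 0.15, 0.23 and 0.13. Of the 7 stress genes, 0 passed the test and 7 had a positive fold change, against 41.6% of all genes. At an unadjusted p under 0.05, 3 were higher (42.9%, against 7.91% of all genes). On 4 (57.1%, against 16.5%) the duct arrays lay above basal. Both Trib3 and Chac1 lay under the intensity filter in basal and passed it only through the duct arrays, so they had to differ. Without them the median of the stress genes was 0.23. Of those 5, 1 (20%) was higher at an unadjusted p under 0.05, and 2 (40%) did not overlap, both higher. Over all genes, less those under the filter in 1 group, the shares were 7.13% and 16.1%.

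Asns encodes asparagine synthetase, which makes asparagine from aspartate. It read 387 and 413 in basal and 1168, 929 and 1256 in duct. The groups were far apart relative to their spread, at 400.1 ± 17.9 (SD, n = 2) and 1118 ± 169 (SD, n = 3), a ratio of 2.79. The fold change was 1.44 (SE 0.25, 95% interval 0.81 to 2.06, limma adjusted p = 0.0727), where the interval, like the others given here, is for the gene alone and not adjusted for multiple testing. Over the alternative settings it stayed between 1.34 and 1.64, with adjusted p from 0.011 to 0.33. A second probe set of the gene gave 1.32.

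Trib3 encodes a pseudokinase that binds ATF4 and CHOP and damps their activity. Basal intensities of 44.4 and 73.6 were not above the control probe sets of their arrays, while duct intensities were 215, 441 and 231. All 3 duct arrays lay above the controls, so the gene was at least 3.89-fold higher in duct, taking the controls as the floor for basal. The fitted value was 2.01 (SE 0.40, 95% interval 1.03 to 2.99, limma adjusted p = 0.0857). The mean over its probe sets, which takes in a dimmer one at 101 and 31.2 in basal and 72.5, 18.9 and 18.9 in duct, was 0.68.

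Chac1 encodes an enzyme that degrades glutathione. It was read at 3.76 and 55.5 in basal, neither above the controls, and at 589.6, 320.0 and 129.6 in duct. The duct arrays spanned a wide range, yet the lowest of them lay above both basal arrays, and the gene was at least 4.04-fold higher in duct. Its fitted fold change of 3.04 was imprecise (SE 0.78, 95% interval 1.12 to 4.96, limma adjusted p = 0.131). That value depends on how the dim basal arrays are treated and ranged from 2.02 to 4.15 over the alternatives.

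Ddit3 encodes CHOP, a transcription factor that acts downstream of ATF4. Its basal arrays read 515 and 847 and its duct arrays 1024, 1109 and 1079. The duct arrays were tight, at 1071 ± 42.8 (SD, n = 3), and the spread lay in basal, at 681 ± 235 (SD, n = 2). The fold change was 0.68 (SE 0.29, limma adjusted p = 0.291) and was 0.33 without basal replicate 1. A dimmer probe set of the gene read 199 and 212 in basal and 468, 443 and 773 in duct, a fold change of 1.34.

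Atf4 mRNA gave different values by probe set. The most intense one read 12405 and 11764 in basal and 14916, 12155 and 13336 in duct, with overlapping arrays and a fold change of 0.15 (SE 0.24). Another probe set of Atf4 read 4999 and 5429 in basal and 8975, 8193 and 8298 in duct, with no overlap and a fold change of 0.70 (limma adjusted p = 0.235). Xbp1 read 2673 and 2434 in basal and 3365, 2938 and 2207 in duct, and the lowest duct array lay below both basal arrays. Its 4 probe sets gave fold changes of 0.13 to 0.26. Atf6 read 1250.4 and 894 in basal and 1189, 1319.5 and 1213 in duct, which also overlapped. For these transcription factors the intervals of the fold change were wide: those of Xbp1 and Atf6 reach from below 0 to 0.82 and 0.86.

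**Figure D2:**
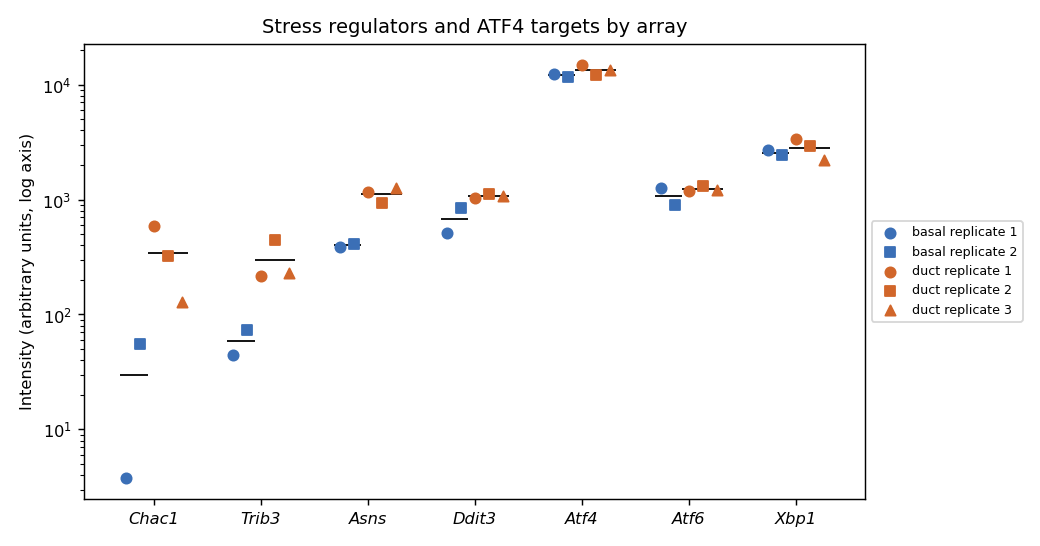
Intensity of the 7 stress regulators and ATF4 targets on each of the 2 basal and 3 duct arrays, on a log axis in arbitrary units, with a bar at each group's mean. Chac1, Trib3, Asns and Ddit3 have all duct arrays above both basal arrays, and the arrays of Atf4, Atf6 and Xbp1 overlap. Heights of different genes are not comparable, because probe sets differ in response.

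Of the 4 stress genes that did not overlap, Asns, Chac1 and Trib3 share a sequence feature. Ddit3 lacks it. ATF4 binds, with C/EBP proteins, a composite element (CARE) whose core was searched for as TGATGNAA on both strands of RefSeq promoters (assembly GRCm38.p6, 250 bases before to 50 bases after the start site). The core was found in 4 of 31 promoters of the set (12.9%), those of Asns, Chac1, Trib3 and Herpud1, and in 3.97% of all 32851 promoters in the table. The promoters are shown 5′ to 3′ on the gene's strand with the match in capitals: Asns at chr6:7693210-7693459 (minus strand) and Chac1 at chr2:119350992-119351241 (plus strand), each the 250 bases before the start site, and for Trib3 the 30 bases at chr2:152344028-152344057 (minus strand) that lie 3 to 32 bases after it.
Asns: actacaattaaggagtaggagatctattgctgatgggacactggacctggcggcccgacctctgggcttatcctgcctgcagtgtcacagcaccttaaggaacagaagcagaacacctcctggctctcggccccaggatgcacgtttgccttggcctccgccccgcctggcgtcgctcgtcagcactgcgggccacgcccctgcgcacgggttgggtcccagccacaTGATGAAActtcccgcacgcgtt
Chac1: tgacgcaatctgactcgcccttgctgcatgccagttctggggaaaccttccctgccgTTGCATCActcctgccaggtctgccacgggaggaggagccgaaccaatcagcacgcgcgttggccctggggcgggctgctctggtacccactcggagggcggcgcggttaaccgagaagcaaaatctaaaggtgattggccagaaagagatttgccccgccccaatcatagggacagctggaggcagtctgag
Trib3: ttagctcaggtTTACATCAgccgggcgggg
The match in Asns lies 23 to 16 bases before the start site on the gene's strand. Those in Chac1, 193 to 186 bases before it, and Trib3, 14 to 21 bases after it, lie on the opposite strand and so read as the reverse complement. The 4 genes with the core had a median fold change of 1.72, with 3 not overlapping higher and 1, Herpud1, not overlapping lower. Over all genes tested, 16.5% did not overlap and were higher, and 22.6% lower. Among the 4 genes, Trib3 and Chac1 passed the intensity filter only through the duct arrays, so they had to differ. Without them Asns, at 1.44, and Herpud1, at -0.22, remain, and these go opposite ways. A match describes these letters and does not show binding. Asns, Chac1 and Trib3 are in the set as ATF4 targets, so an element bound by ATF4 in their promoters is not independent of that choice.

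Chaperones and folding enzymes differed less. Of the 16 genes, 14 had a positive fold change and 2 a negative one. On 8 genes the duct arrays lay above both basal arrays and on 1, Pdia5, below them, while 7 overlapped, against 16.5% and 22.6% of all genes. None passed the test, and at an unadjusted p under 0.05 only Manf was higher and Pdia5 lower (6.25% each, against a background of 7.91% and 10.6%). The median of 0.27 was 0.40 above that of all genes, and 0.20 above it after quantile normalization.

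Hspa5 encodes BiP, the main Hsp70 of the ER, which holds the stress sensors inactive. It read 9561 and 9533 in basal and 12713, 13933 and 13085 in duct. Each group was narrow, at 9547 ± 19.7 (SD, n = 2) and 13244 ± 626 (SD, n = 3), and the ratio was 1.39. The fold change was 0.47 (SE 0.22, 95% interval -0.08 to 1.02, limma adjusted p = 0.33). With the trend and robust fit Hspa5 passed, at an adjusted p of 0.0327. A second probe set of Hspa5 read 7103 and 7557 in basal and 11481, 11224 and 10320.0 in duct, again with no overlap, and the third gave 0.30. The fold change was 0.31 after quantile normalization and 0.68 with arrays centred on their medians.

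Hyou1, the nucleotide exchange factor of BiP, read 2025 and 2582 in basal and 3934, 3126 and 2846 in duct, a fold change of 0.51 (SE 0.27, limma adjusted p = 0.374). Its other probe sets gave -0.12 and 0.70, so the direction rests on which probe set is read. Sdf2l1, a partner of the co-chaperone ERdj3, read 280.0 and 156 in basal and 284, 505 and 437 in duct. Its groups only just separated, and the fold change of 0.88 (SE 0.38, limma adjusted p = 0.294) was 0.48 without basal replicate 2 and 1.27 without basal replicate 1. Dnajb9, the co-chaperone ERdj4, read 6524 and 6239.6 in basal and 9047, 7851 and 6839 in duct, higher on every duct array at a ratio of 1.24.

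Of the other J-domain proteins, which also serve BiP, Dnajb11, which is ERdj3, read 3677 and 4114 in basal and 4542, 4504 and 3437 in duct. Dnajc3, also called p58IPK, read 1918 and 1856 in basal and 1862, 1943 and 1654 in duct. Both overlapped, with fold changes of 0.09 and -0.06, and all 5 probe sets of Dnajc3 gave negative values, from -0.49 to -0.05.

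Manf and Creld2 are small ER proteins induced by unfolded protein, of which MANF binds BiP and can be secreted. Manf read 2975 and 3206 in basal and 5373, 6007 and 3931 in duct, all duct arrays above basal. The ratio was 1.65 and the fold change 0.70 (SE 0.28, 95% interval 0.0087 to 1.39, limma adjusted p = 0.268). Creld2 read 1677 and 1283 in basal and 2228, 2110.1 and 1784 in duct, which also did not overlap, at a ratio of 1.38.

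Hsp90b1, the ER form of Hsp90 (GRP94), read 9821 and 10218 in basal and 10285, 12359.6 and 13294 in duct. The lowest duct array lay just above the higher basal array, and the fold change of 0.25 (SE 0.24, limma adjusted p = 0.627) had a 95% interval of -0.35 to 0.85. P4hb, the founding protein disulphide isomerase, read 4298 and 5615 in basal and 7022, 6353 and 6156 in duct, without overlap. The isomerases Pdia3, Pdia4 and Pdia6 and the lectin chaperones Calr and Canx overlapped, with fold changes of 0.10 to 0.31. Pdia6, for one, read 1021 and 768 in basal and 965, 1182 and 744 in duct.

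Pdia5, another disulphide isomerase, had the lowest fold change of the set. It read 320.3 and 443 in basal and 150.2, 172 and 105 in duct, and both basal arrays lay above all duct arrays. The basal mean was 2.68 times the duct mean, and the fold change was -1.34 (SE 0.31, 95% interval -2.10 to -0.57, limma adjusted p = 0.112). Over the alternatives its adjusted p ran from 0.0567 to 0.347, and the direction held in all that were run.

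**Figure D3:**
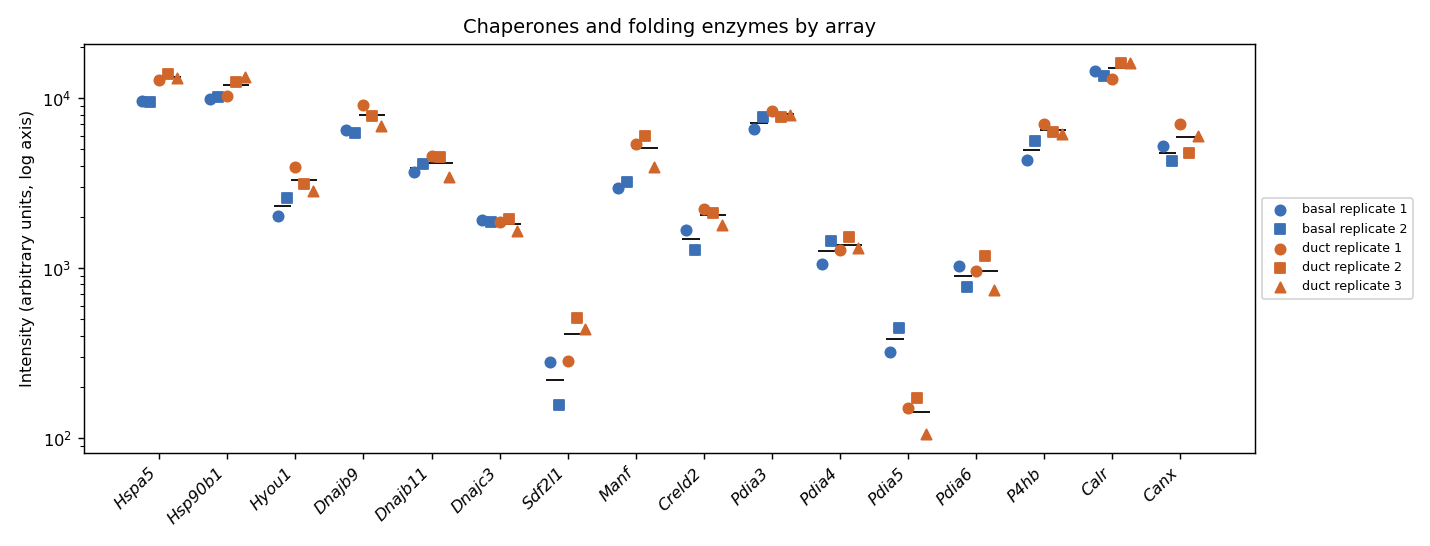
Intensity of the 16 chaperones and folding enzymes on each of the 2 basal and 3 duct arrays, on a log axis in arbitrary units, with a bar at each group's mean. Duct arrays lie above both basal arrays for Hspa5, Hsp90b1, Hyou1, Dnajb9, Sdf2l1, Manf, Creld2 and P4hb and below them for Pdia5. Levels of different genes are not comparable.

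Chaperone promoters carried another element. The ER stress response element (ERSE), bound by ATF6 with NF-Y and also by XBP1, was searched for as CCAAT and CCACG with 9 bases of any kind between them, and its shorter form ERSE-II as ATTGG and CCACG with 1 base between them. On either strand, ERSE was found in 8 of 31 promoters of the set (25.8%) and in 39 of all 32851 (0.119%). The 8 genes were Calr, Canx, Creld2, Dnajc3, Hsp90b1, Hspa5, Pdia6 and Syvn1. ERSE-II was found in 2 promoters (6.45%, against 0.0365% of all), those of Dnajb11 and Herpud1. The core of a further element, UPRE (TGACGTGG), was in 0 of 31 and in 0.676% of all promoters. None of the matches in the set overlapped another. The set was chosen for the unfolded protein response, in which ATF6 and XBP1 act, so the ERSE and ERSE-II shares are not independent of that choice.

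The promoters of Hspa5 and Hsp90b1 are shown because each holds ERSE upstream of an abundant chaperone, and that of Herpud1 because it holds both ERSE-II and the CARE core. Each is the 250 bases before the start site on the gene's strand, with matches in capitals: Hspa5 at chr2:34771840-34772089 (plus strand), Hsp90b1 at chr10:86705445-86705694 (minus strand) and Herpud1 at chr8:94386179-94386428 (plus strand), from RefSeq, GRCm38.p6.
Hspa5: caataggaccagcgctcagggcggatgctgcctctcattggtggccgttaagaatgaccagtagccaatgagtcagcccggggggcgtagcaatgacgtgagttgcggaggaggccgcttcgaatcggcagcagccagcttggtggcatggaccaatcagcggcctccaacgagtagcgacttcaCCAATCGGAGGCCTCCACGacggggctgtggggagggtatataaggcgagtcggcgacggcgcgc
Hsp90b1: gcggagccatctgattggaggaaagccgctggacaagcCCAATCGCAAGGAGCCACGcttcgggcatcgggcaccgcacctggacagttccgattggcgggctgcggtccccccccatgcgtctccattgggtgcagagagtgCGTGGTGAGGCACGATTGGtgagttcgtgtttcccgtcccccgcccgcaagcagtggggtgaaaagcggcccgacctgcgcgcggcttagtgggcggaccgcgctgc
Herpud1: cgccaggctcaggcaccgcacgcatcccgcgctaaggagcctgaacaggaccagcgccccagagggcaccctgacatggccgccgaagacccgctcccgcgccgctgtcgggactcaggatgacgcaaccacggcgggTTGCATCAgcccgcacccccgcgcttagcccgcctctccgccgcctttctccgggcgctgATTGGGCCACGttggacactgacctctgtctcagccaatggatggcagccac
In Hspa5 the match lies 65 to 47 bases before the start site. Hsp90b1 has 2 matches, 212 to 194 bases before it on the gene's strand and 107 to 89 bases before it on the opposite strand. In Herpud1 the CARE core (opposite strand) lies 112 to 105 and ERSE-II 52 to 42 bases before the start site.

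Genes with ERSE lay within the range of the others. The 8 genes with ERSE had a median fold change of 0.19 (-0.06 to 0.47), with 3 not overlapping higher and 0 lower. The 16 genes whose promoters held none of the motifs had a median of 0.15 (-1.34 to 1.04), with 6 not overlapping higher and 2 lower. These groups were not tested against each other. Over all genes tested the median was -0.12, with 16.5% not overlapping higher and 22.6% lower. Promoters were listed for 30 of the 36 genes, not for Hyou1, Ssr2, Atf6, Manf, Derl1 and Sec61a1, and Derl2 had 2.

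**Figure D4:**
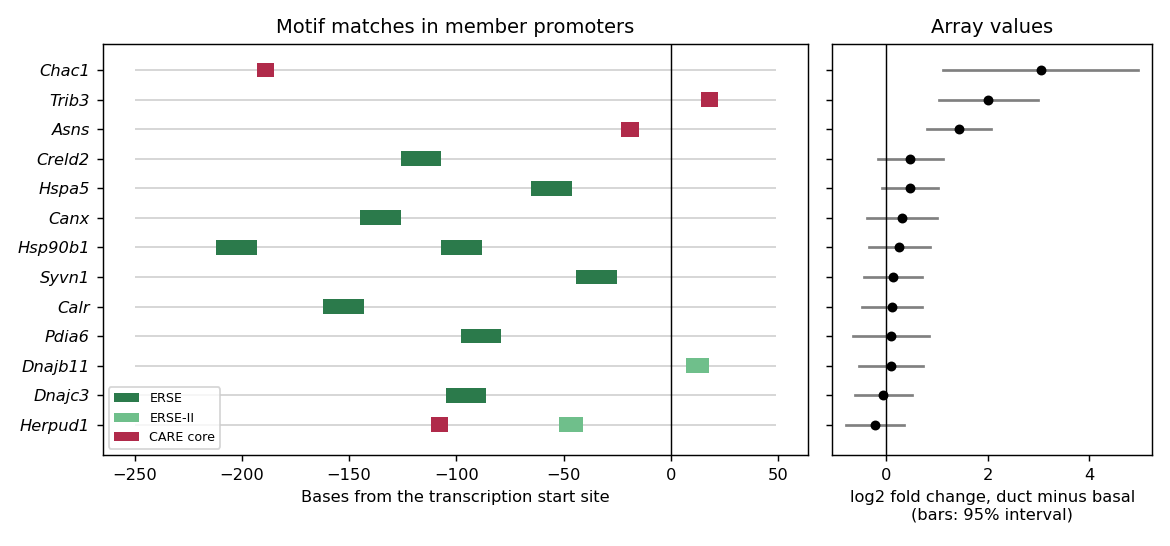
Left, position of each motif match in the 13 promoters of the set that hold one, in bases from the start site, with both strands drawn alike. Right, log2 fold change of the same genes (points) with unadjusted 95% intervals (bars). Of the 4 genes with the CARE core, Chac1, Trib3 and Asns have the highest values shown and Herpud1 the lowest. Chac1 and Trib3 passed the intensity filter only through the duct arrays.

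Translocation genes were close to even between the groups. Of the 6 measured, 3 had a positive and 3 a negative fold change (all 3 above 0 with each array centred). On 2 (33.3%), Ssr2 and Ssr3, the duct arrays lay above both basal arrays and on 0 below, against 16.5% and 22.6% of all genes. None passed the test, and 1 (16.7%, against 7.91% of all genes) was higher at an unadjusted p under 0.05. That gene was Ssr2, a subunit of the TRAP complex, which sits at the channel and helps certain signal sequences through. Ssr2 read 1010.0 and 980.1 in basal and 1822, 1530.1 and 1608 in duct. Both groups were narrow, at 995 ± 21.1 (SD, n = 2) and 1653 ± 151 (SD, n = 3), with a fold change of 0.72 (SE 0.23, 95% interval 0.15 to 1.29, limma adjusted p = 0.196).

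The other TRAP subunits had smaller values. Ssr3 read 5992 and 6515 in basal and 8872, 6815 and 6854 in duct, a fold change of 0.25 that rests in part on duct replicate 1. Ssr1 read 3835 and 3489 in basal and 4172, 3237 and 3209 in duct, and Ssr4 read 2007 and 1854 in basal and 2289.5, 2130.3 and 1429 in duct. Both overlapped, at -0.06 and -0.01. A dim probe set of Ssr4, left out by the filter, read 135 and 109.7 in basal and 1.46, 40.9 and 10.5 in duct, where none was above the controls, and was at least 2.36-fold lower in duct. Another probe set of Ssr1 read 1034 and 1124 in basal and 394, 679 and 518 in duct, a fold change of -1.03, so its probe sets differ more than the groups do at the most intense one. All 4 probe sets of Ssr1 gave negative values, 2 of them without overlap.

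Of the channel itself, Sec61a1 is the pore subunit. It read 13645 and 12098 in basal and 13233, 13114 and 15809.7 in duct, and Sec61b read 5505 and 5327 in basal and 6061, 4333 and 5534 in duct. Neither separated the groups at its most intense probe set, with fold changes of 0.12 and -0.04. The 6 probe sets of Sec61a1 ran from -0.45 to 0.26. The lowest of them did separate the groups, at 5864 and 4941 in basal and 4394, 3809.6 and 3660.5 in duct.

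Of the 6 degradation genes, 1 (16.7%) had all duct arrays above basal (Edem1), as 16.5% of all genes did. All of them lay below basal for 3 (Sel1l, Derl1 and Herpud1), where 22.6% of all genes did, and 2 genes overlapped. None passed the test, and an unadjusted p under 0.05 was reached by 1 that was higher (Edem1) and 1 that was lower (Derl1). That is 16.7% each, against 7.91% and 10.6% of all genes. Of the 4 genes of the set that lay lower without overlap, 3 were of this role.

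Edem1 encodes a lectin that takes misfolded glycoproteins out of the folding cycle. It read 488 and 786 in basal and 1346, 1183 and 1355 in duct, with every duct array well above basal. The ratio was 2.03 and the fold change 1.04 (SE 0.29, 95% interval 0.32 to 1.76, limma adjusted p = 0.153). It was 0.71 without basal replicate 1 and 1.38 without basal replicate 2, and a second probe set gave 0.10.

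Sel1l encodes the adaptor of the ubiquitin ligase HRD1, through which misfolded proteins leave the ER. It read 4671 and 3554 in basal and 2623, 2479 and 1015 in duct, where all duct arrays were lower and duct replicate 3 lowest. The basal mean was 2.02 times the duct mean, with a fold change of -1.11 (SE 0.48, limma adjusted p = 0.291) that was -0.67 without duct replicate 3. All 5 of its probe sets gave negative values, from -1.17 to -0.65, and 4 did not overlap.

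Syvn1, the ligase HRD1 itself, read 786 and 677 in basal and 775, 871 and 763 in duct, which overlapped at a fold change of 0.13. Herpud1, which joins the HRD1 complex and is a classical target of the stress response, read 1422 and 1367 in basal and 1183, 1101 and 1312 in duct. It was lower on every duct array by a small margin, at -0.22 (SE 0.23, limma adjusted p = 0.656), unlike the other genes with the CARE core.

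The derlins are membrane proteins of the exit channel. Derl1 read 3266 and 3355 in basal and 2364, 2173 and 1508 in duct at its most intense probe set, all lower, with a fold change of -0.74 (SE 0.29, limma adjusted p = 0.256). Another Derl1 probe set read 1173 and 1157 in basal and 1822, 1589.8 and 1404 in duct, all higher, at 0.45. The array thus gives no single direction for Derl1. Derl2 read 1431 and 2734 in basal and 2941, 2013 and 1816 in duct, so that the basal arrays lay at least as far apart as the duct arrays.

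Probe sets of 1 gene did not always give the same direction. Of the 83 probe sets, 79 passed the filter, 0 passed the test when each probe set was a unit (0.484% of all 22527 did), and the unadjusted p was under 0.05 for 8 that were higher and 4 that were lower. All duct arrays lay above basal for 22 and below for 11, beside 15.9% and 21.7% of all probe sets tested. Among 23 genes with several tested probe sets, 6 had both signs: Pdia3, Pdia6, Hyou1, Sec61a1, Derl1 and Derl2. Genes whose probe sets kept close together included Calr (0.09 to 0.14), Xbp1 (0.13 to 0.26) and Asns (1.32 and 1.44).

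**Figure D5:**
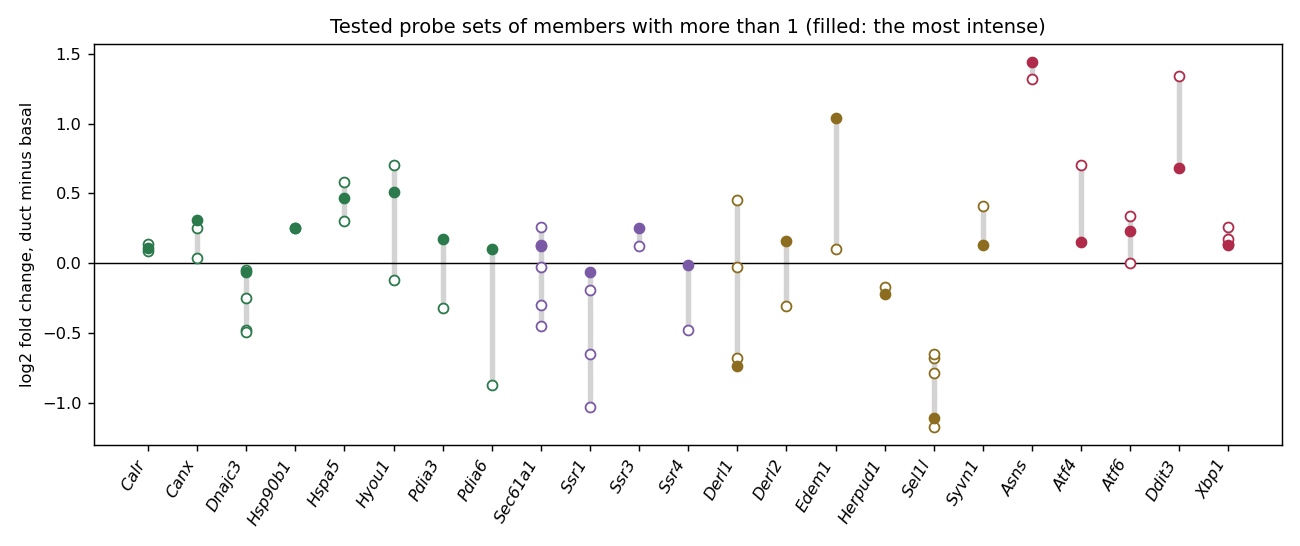
Log2 fold change, duct minus basal, of each tested probe set of the 23 genes with more than 1, filled for the most intense probe set that stands for the gene and open for the others. Colours give the role as in the plot of fold changes by role. Derl1 spans -0.74 to 0.45, while both probe sets of Asns lie at 1.32 and 1.44 and all 5 of Sel1l below 0.

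Other genes of the same pathways were read from lists of 111 genes, of which 107 had a probe set and 102 passed the filter. None passed the test, the unadjusted p was under 0.05 for 14 that were higher and 5 that were lower (13.7% and 4.9%, against a background of 7.91% and 10.6%), and their median fold change was 0.007, with 51 positive and 51 negative. On 26 (25.5%) the duct arrays lay above basal and on 19 (18.6%) below, against a background of 16.5% and 22.6%. Sensors and their partners had a median of -0.21 (14 genes), other folding genes -0.0092 (22), other translocation genes 0.01 (24) and other degradation genes -0.0046 (19). The median for 23 other ATF4 targets was 0.52.

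Among the other ATF4 targets the unadjusted p was under 0.05 for 9 higher (39.1%) and 1 lower (4.35%), against 7.91% and 10.6% of all genes. On 13 of 23 (56.5%) the duct arrays lay above basal and on 2 (8.7%) below, against 16.5% and 22.6% of all genes. Slc7a1, which carries cationic amino acids into the cell, read 987 and 1427 in basal and 4348, 3726 and 3038 in duct, at 1.61 (limma adjusted p = 0.0771). Slc7a11, the cystine importer, read 52.2 and 35.1 in basal and 402, 243 and 87.9 in duct, at least 2.85-fold higher. Cth, which makes cysteine, read 75.1 and 20.2 in basal and 203, 155 and 197 in duct. For all 3 genes the groups did not overlap. Both Slc7a11 and Cth lay under the intensity filter in basal and passed it only through the duct arrays. Without them the duct arrays lay above basal on 11 of 21 (52.4%), 7 (33.3%) were higher at an unadjusted p under 0.05 and the median was 0.37. Over all genes, less those under the filter in 1 group, the shares were 16.1% and 7.13%. Slc7a5, a carrier of large neutral amino acids chosen after its values were seen, had the smallest adjusted p of the lists, 0.0679, and a fold change of 1.44. Not all genes of the list ran this way, since Gpt2, also chosen after its values were seen, had -1.25. Of 26 promoters of these genes in the table, 7 (26.9%) held the CARE core, against 3.97% of all promoters. That share is not independent of their choice as ATF4 targets.

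Among sensors and their partners, the 3 largest differences were lower in duct. The list as a whole was mixed. On 3 of 14 genes (21.4%) the duct arrays lay above basal and on 4 (28.6%) below, against 16.5% and 22.6% of all genes. Creb3l4, an ATF6-like factor of secretory cells, read 273 and 284 in basal and 69.5, 19.8 and 53.1 in duct, a fitted value of -2.31 (limma adjusted p = 0.0742). Only 1 of its duct arrays was above the controls, so the size of the difference is not well measured. Ern2, the IRE1 form of mucous epithelia, read 315 and 164 in basal and 45.8, 92.4 and 92.2 in duct, at -1.44 (limma adjusted p = 0.157). Creb3l4 and Ern2 lay under the intensity filter in duct and passed it only through the basal arrays, where they are high. Both separated the groups, as did Mbtps2, a protease that cuts ATF6, at -1.03. Without Creb3l4 and Ern2 the duct arrays lay above basal on 3 of 12 genes (25%) and below on 2 (16.7%). Over all genes, less those under the filter in 1 group, the shares were 16.1% and 22.4%. In other folding genes the oxidase Ero1a read 301 and 388 in basal and 1115, 1008 and 655 in duct, at 1.36 (limma adjusted p = 0.116), and the reductase Dnajc10 was lower on each duct array at -0.83. Calu was at 0.65. The genes with the largest values in the remaining lists were Sec61a2 (-0.93), Srp68 (0.71) and Stt3b (-0.39) in translocation and Man1b1 (-0.97), Ubxn4 (0.63) and Fam8a1 (-0.58) in degradation, none of them past the test.

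Genes known to respond to the enzymatic freeing of cells were read because the enzymes differed between groups. Of 11, 2 had a positive (18.2%, against 41.6% of all genes) and 9 a negative fold change. Their median was -0.19, beside -0.12 over all genes. On 2 (18.2%) the duct arrays lay above basal and on 5 (45.5%) below, against 16.5% and 22.6% of all genes. The other 4, Jun, Junb, Dusp1 and Zfp36, overlapped. Egr1 read 23563 and 23339.5 in basal and 8609, 11430.3 and 8915 in duct, while the cytosolic heat shock gene Hspa1b read 8053 and 15490.1 in basal and 23119, 23801 and 21118 in duct. Ier2, another immediate early gene, read 2244 and 1686 in basal and 381, 718 and 642 in duct, at -1.77. Egr1 and Ier2 thus lay lower and Hspa1b higher on every duct array. None of them passed the test, with limma adjusted p of 0.0844 for Egr1, 0.0879 for Ier2 and 0.206 for Hspa1b. Their part in the values of the stress genes was not tested.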

How the data were processed

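Epithelial cells sorted from mouse trachea were measured on 2 basal and 3 duct arrays. The deposited table gives a linear intensity per probe set, with the same trimmed mean, 500.0, on all arrays, so the authors scaled them. Their summary method is not given in the sources used here. Of 45101 probe sets, 64 controls were left out. The platform annotation gave 34945 probe sets 1 gene symbol, 932 several and 9160 none, and only the first named a gene.

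For each gene the most intense probe set by mean log2(intensity + 16) was used, and the lowest 40% of probe sets were left out (those under 6.643 on that scale), which left 12536 genes. Groups were compared with lmFit and eBayes of limma 3.58.1 (R 4.3.3, statmod 1.5.0), 2-sided, without covariates, on 3 residual and 2.79 prior degrees of freedom, with Benjamini-Hochberg adjustment over all genes. All adjusted p-values are limma's, and the fit was tested on simulated data. A probe set was taken as above background where it exceeded the brightest of 27 Bacillus probe sets of its array. Where no array of the lower group did, a lower bound of the fold is given, the other group's mean over that control level, both averaged as log2 values. Values are in arbitrary units, and the small number of arrays limits their precision. The arrays came from separate pools and were not paired by replicate number. Deviations from the group means correlated at -0.08 (replicate 1) and -0.04 (replicate 2). With 2 basal arrays the deviations of 1 mirror those of the other, so these values are not independent. Shared handling of arrays was not tested.

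The genes and the other gene lists were chosen with earlier results of these data known. Values per array were given, within each role, for up to 5 genes with the largest and 3 with the smallest absolute fold change, and for others where arrays or probe sets are described. Those others (Hsp90b1, Dnajb9, Creld2 and P4hb) were chosen after their values were seen. From each other list up to 3 genes with the largest absolute fold change were named, and Slc7a5 and Gpt2 were chosen after their values were seen. Tables were made with Python 3.11.15, pandas 2.3.3 and numpy 2.4.6, and figures with matplotlib 3.10.9.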

Additional observations from a re-analysis of the deposited data

How the results depend on the processing

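Counts of calls moved with the settings. Genes called numbered 122. There were 338 with arrays centred on their medians (281 higher, 57 lower), 303 with a pseudocount of 64, 36 with no filter, 408 with the lowest 60% left out, 191 with the mean of probe sets, 942 with an intensity trend and robust fit and 0 with the replicate block, which has fewer residual degrees of freedom. Leaving out 1 array gave 0 to 48: 2 without basal replicate 1, 0 without basal replicate 2, 48, 24 and 1 without duct replicates 1, 2 and 3. A lone basal array is taken to have the spread of the duct arrays. Of the ER genes, 0 were called, against 2 with centring (Trib3 and Chac1), 1 with a pseudocount of 64 and 1 with the lowest 60% left out (Asns in both), 4 with trend and robust fit, and 0 without any 1 array and with the replicate block. Their probe sets went from 0 to 2 with centring, 1 at 60% and 8 with trend and robust fit (7 higher). The other pathway genes went from 0 to 1 with quantile normalization (Slc7a5), 3 with centring, 3 with a pseudocount of 64, 3 at 60% and 9 with trend and robust fit (7 higher).

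The median fold change of the ER genes, 0.17, was 0.38 with centring, 0.25 without _s_at and _x_at probe sets, 0.27 with the replicate block and 0.18 to 0.27 with 1 array left out. Folding genes went from 0.27 to 0.15 with quantile normalization and 0.48 with centring, and translocation genes from 0.05 to 0.26 with centring. Degradation genes went from -0.04 to 0.16 with centring, -0.14 with the mean of probe sets, 0.28 without _s_at and _x_at probe sets and -0.25 to -0.04 with 1 array left out. Stress genes went from 0.68 to 0.89 with centring, 0.23 at 60%, which drops Trib3 and Chac1, and 0.46 to 1.03 with 1 array left out. Less the median of all genes, the centred values equal the main ones.

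By gene, 20 of 35 kept their direction under every alternative run, and 32 of 522 values changed it. Quantile normalization gave -0.0037 for Pdia3, -0.03 for Calr, -0.01 for Dnajb11 and -0.02 for Sec61a1. The mean of probe sets gave -0.07 for Pdia3, -0.13 for Pdia4, -0.39 for Pdia6, -0.04 for Sec61a1 and -0.08 for Derl2. Centring gave 0.15 for Dnajc3, 0.16 for Sec61b, 0.15 for Ssr1 and 0.19 for Ssr4, and the replicate block 0.01 for Dnajc3, 0.0067 for Ssr1 and 0.19 for Ssr4. Without _s_at and _x_at probe sets Hyou1 was -0.12 and Derl1 0.45. With 1 array left out, Pdia4 ran from -0.08 to 0.36, Pdia6 from -0.11 to 0.30, Dnajc3 from -0.10 to 0.01, Xbp1 from -0.0025 to 0.30, Atf6 from -0.01 to 0.46, Sec61b from -0.14 to 0.10, Ssr1 from -0.18 to 0.0098, Ssr4 from -0.14 to 0.19 and Derl2 from -0.31 to 0.62. Beyond the settings that drop arrays, genes or probe sets, the cause was not tested. Trib3 was not tested without _s_at and _x_at probe sets.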
